A study of Mus musculus with 6 samples.

Results

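This account covers 9 genes that are regulated by peroxisome proliferator-activated receptors (PPARs) and that set the balance between glucose and fatty acid use, namely Ucp2, Ucp3, Pdk4, Angptl4, Acot1, Acot2, Cpt1a, Cpt1b and Cd36. They were taken by symbol from gene tables that held 17891 named genes, and all 9 were listed in each of the 6 libraries. RNA was sequenced from the myocardium of 6-week-old C57BL/6 mice, 3 NS-DADm samples and 3 wild type (WT) samples. In NS-DADm mice the deacetylase activating domains (DADs) of the nuclear receptor corepressors NCOR and SMRT are mutated by knock-in in every tissue, not in heart muscle alone. Through these domains the 2 corepressors switch on the histone deacetylase HDAC3. Values per gene are FPKM as the authors deposited them, that is, reads or fragments scaled by gene length and library size. Whether the samples are separate mice is not stated, and p-values therefore refer to the spread among these 6 samples, which may be technical. In whole tissue fewer cells of a type cannot be told apart from less RNA per cell.

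PPARs are nuclear receptors that bind fatty acids and related ligands, pair with RXR on DNA at a direct repeat of AGGTCA spaced by a single base (a DR1 element), and recruit coactivators when bound by ligand and corepressors such as NCOR and SMRT when not. In heart muscle, PPAR alpha and PPAR delta drive genes for the uptake, activation and mitochondrial import of fatty acids. Their targets also restrain glucose oxidation, so that fasting, when fatty acids rise, shifts the fuel of the heart towards fat.

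Total expected counts were 12262523 to 12758311 in the NS-DADm libraries and 10183792 to 11205221 in the WT libraries, so every NS-DADm library was deeper. The summed FPKM of 8 cardiomyocyte markers was 56001 to 63731 in NS-DADm and 56498 to 64469 in WT, while 9 markers of skeletal muscle fibres summed to 2.94 to 5.64 in NS-DADm and 2.80 to 6.48 in WT, so the defining transcripts were those of heart muscle. Libraries differed within both groups in transcripts of atrial cardiomyocytes. Their 6 markers summed to 3773 and 6585 FPKM in NS-DADm 1 and 3 and to 574 in NS-DADm 2, against 535 and 271 in WT 1 and 2 and 4691 in WT 3. For Ucp2, Pdk4 and Angptl4, values are also given within each side of this split. The 3 low-atrial libraries are NS-DADm 2, WT 1 and WT 2. The 3 high-atrial libraries are NS-DADm 1, NS-DADm 3 and WT 3.

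Of the 9 genes, Ucp2 rose in NS-DADm myocardium, 0 fell, and the other 8 did not pass the test. Of all 13130 tested genes, 3.2% were called, 1.79% as higher and 1.41% as lower. The median log2 fold change of the 9 genes was -0.03, against -0.0031 for all tested genes, and 4 of the 9 were positive. Counts were tested by edgeR's quasi-likelihood method over all genes with Benjamini-Hochberg adjustment, a gene was called at an adjusted p under 0.05, and fold changes are NS-DADm over WT. For 2 genes the FPKM ranges did not overlap between the groups, Ucp2 and Cpt1b, and the same held for 23.4% of all tested genes.

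**Figure D1:**
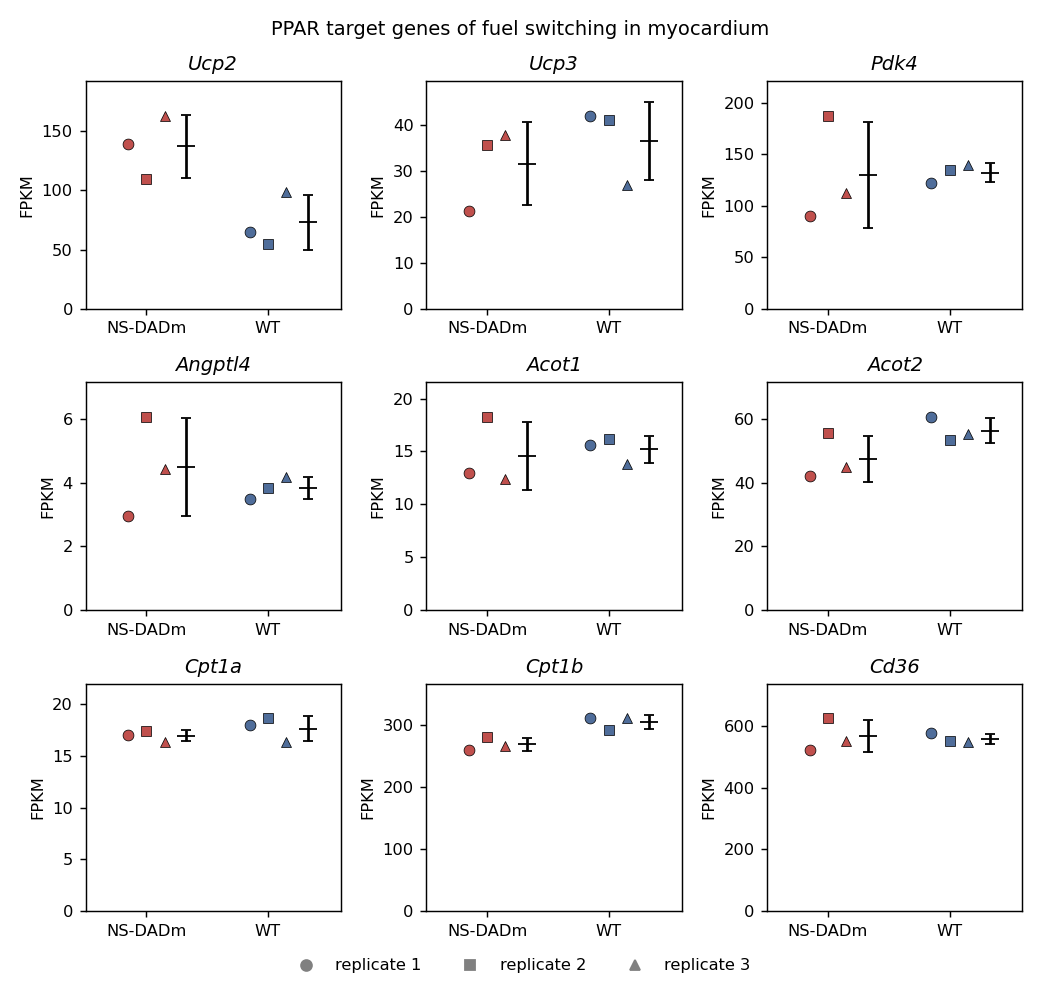
FPKM of each of the 9 genes (vertical axes, each from 0) in the 3 NS-DADm and the 3 WT libraries, 1 point per library with the shape giving the replicate number, and the mean with SD as a bar. The NS-DADm points of Ucp2 (109.5 to 162.8) all lie above the WT points (54.5 to 98.8), and NS-DADm 2 is the highest NS-DADm library for Pdk4, Angptl4, Acot1, Acot2, Cpt1a, Cpt1b and Cd36.

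The uncoupling proteins are carriers of the mitochondrial inner membrane. Ucp2 is found in many cell types, macrophages among them, and Ucp3 mainly in skeletal muscle, brown fat and heart. The 2 genes are neighbours on chromosome 7, and the 250 bases before the start of each are shown because Ucp2 was called and its neighbour of the same family was not. The sequence of Cd36, which encodes a fatty acid transporter of the plasma membrane, is added as the other gene with a close DR1 match. Sequences are from RefSeq, build GRCm38.p6, at chr7:100493108-100493357 (plus strand) for Ucp2, chr7:100472741-100472990 (plus strand) for Ucp3 and chr5:17835897-17836146 (minus strand) for Cd36, with capitals marking the stretch closest, on either strand, to the DR1 motif, which is AGGTCA, any base and AGGTCA again.
Ucp2: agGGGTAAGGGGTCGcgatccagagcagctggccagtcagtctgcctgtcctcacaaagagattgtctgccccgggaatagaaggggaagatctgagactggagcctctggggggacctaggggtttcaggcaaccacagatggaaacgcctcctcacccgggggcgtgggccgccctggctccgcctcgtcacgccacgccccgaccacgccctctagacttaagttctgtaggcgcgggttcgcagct
Ucp3: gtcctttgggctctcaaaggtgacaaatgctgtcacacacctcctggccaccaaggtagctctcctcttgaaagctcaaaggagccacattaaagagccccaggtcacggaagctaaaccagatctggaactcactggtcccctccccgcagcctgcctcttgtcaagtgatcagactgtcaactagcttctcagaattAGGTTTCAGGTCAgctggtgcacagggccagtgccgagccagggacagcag
Cd36: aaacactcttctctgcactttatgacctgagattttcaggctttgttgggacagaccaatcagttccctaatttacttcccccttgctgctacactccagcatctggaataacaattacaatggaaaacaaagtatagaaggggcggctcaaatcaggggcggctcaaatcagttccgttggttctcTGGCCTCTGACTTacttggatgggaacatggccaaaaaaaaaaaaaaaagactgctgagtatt
The closest stretch differed from the 12 fixed letters of the motif at 4 positions in Ucp2 and at 2 positions in each of Ucp3 and Cd36. Of 32851 promoter windows of the same length, 3.24% held a match with at most 2 mismatches and 74.5% one with at most 4. Of the 7 genes of the group in the RefSeq table, Acot2 had a closest match with 3 mismatches, and Pdk4, Acot1 and Cpt1a had 4 each. The 6 letters AGGTCA themselves, on either strand, occurred at 2 positions before Ucp3, at 1 before Cpt1a and at 1 before Cd36, at none before the other 4 genes, and in 14.0% of all windows. Each window lies before a single listed start of its gene, and bases further away were not searched. Cd36 was listed with 5 transcript models, whose starts were not compared. A match is a description of letters and not a binding site.

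Ucp2 (gene ID 22228) had 138.8, 109.5 and 162.8 FPKM in NS-DADm 1, 2 and 3, against 65.1, 54.5 and 98.8 FPKM in WT 1, 2 and 3. All NS-DADm libraries were above all WT libraries, with the smallest gap between NS-DADm 2 and WT 3. The means were 137.1 ± 26.7 FPKM in NS-DADm and 72.8 ± 23.1 FPKM in WT (SD, n = 3 each), the log2 fold change was 0.94 (SE 0.19, 95% interval 0.50 to 1.37), and the change passed the test (adjusted p = 0.0315). The counts behind it were 2115 to 3028 per NS-DADm library and 838 to 1681 per WT library, all of them whole numbers as deposited. The call was lost without NS-DADm 1, NS-DADm 3, WT 1 or WT 2 (adjusted p = 0.0762 to 0.119 over these 4 fits, edgeR) and in limma fits of log2 FPKM with 1 or 0.1 added (adjusted p = 0.0715 and 0.0719).

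Ucp2 moved with the atrial split inside both groups. NS-DADm 3 and NS-DADm 1, rich in atrial transcripts, were the higher NS-DADm libraries, and WT 3, likewise rich, was the highest WT library. Within the low-atrial libraries Ucp2 was at 109.5 FPKM in NS-DADm 2 and at a mean of 59.8 FPKM in WT 1 and 2, a ratio of 1.83, and within the high-atrial libraries it averaged 150.8 FPKM in NS-DADm 1 and 3 and was 98.8 FPKM in WT 3, a ratio of 1.53. These strata hold 1 or 2 libraries of a group and were not tested. The high-atrial libraries were also higher in the sum of 9 adipocyte markers, though not in each marker. Cidea was lowest in WT 3, at 22.7 FPKM. The summed FPKM of these markers was 80.9 and 294.6 in NS-DADm 1 and 3 and 97.5 in WT 3. In NS-DADm 2, WT 1 and WT 2 it was 36.5, 39.4 and 31.4. Atrial and fat cell transcripts therefore cannot be told apart by this split. When the atrial markers entered the fit over all 6 libraries as a score per library, the log2 fold change was 0.69 and the call was kept (adjusted p = 0.00052, edgeR).

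Markers of macrophages also differed between the groups. Their 12 markers summed to 377.6 to 435.2 FPKM in NS-DADm and 293.6 to 327.3 FPKM in WT, ranges that did not overlap. All 12 had a positive fold change, where 49.3% of all tested genes did. Of the 12, 4 were called (C1qa, C1qb, C1qc and Csf1r), where 3.2% of all tested genes were. NS-DADm 2 was lowest among the NS-DADm libraries in both the macrophage sum and Ucp2, whereas WT 3 had the lowest macrophage sum and the highest Ucp2 among the WT libraries. Lymphocyte markers summed to 1.5 to 3.35 FPKM in NS-DADm and 2.15 to 3.5 FPKM in WT, and neutrophil markers to 2.18 to 3.67 FPKM in NS-DADm and 2.24 to 4.25 FPKM in WT, with Ly6g not listed. Endothelial markers summed to 350.6 to 399.6 FPKM in NS-DADm and 321.5 to 399.6 FPKM in WT. The part of any of these cell types in the Ucp2 result was not tested.

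Ucp3 (gene ID 22229) had 21.4, 35.8 and 37.9 FPKM in NS-DADm 1, 2 and 3, against 42.1, 41.1 and 26.9 FPKM in WT 1, 2 and 3. The groups overlapped, with NS-DADm 1 and WT 3 low in their own groups. The log2 fold change was -0.19 (SE 0.21, 95% interval -0.66 to 0.29) and did not pass (adjusted p = 0.707). Ucp3 was 0.238 ± 0.086 times Ucp2 in NS-DADm and 0.557 ± 0.25 times Ucp2 in WT on the FPKM scale (SD, n = 3 each). The log2 ratio of Ucp3 to Ucp2 differed by -1.17 (NS-DADm minus WT), and an exact two-sided permutation test over the 6 libraries gave p = 0.2, where 3 against 3 cannot go below 0.1. It was the first of 3 paralog ratios compared, so no adjusted p could pass.

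Pdk4, the kinase that phosphorylates and shuts down the pyruvate dehydrogenase complex, varied more among the NS-DADm libraries, on the log2 scale, than any other of the 9 genes. Its FPKM was 89.9, 187.3 and 112.2 in NS-DADm 1, 2 and 3, against 121.8, 134.4 and 139.5 in WT 1, 2 and 3. NS-DADm 2 lay above all WT libraries and NS-DADm 1 and 3 below all of them, while the 3 WT libraries were close together. The log2 fold change was 0.01 (SE 0.22, 95% interval -0.48 to 0.49, adjusted p = 0.995), and it was -0.37 without NS-DADm 2 (adjusted p = 0.107, edgeR). Within the low-atrial libraries the ratio was 1.46 (187.3 FPKM in NS-DADm 2 and a mean of 128.1 in WT 1 and 2), and within the high-atrial libraries it was 0.724 (a mean of 101.1 FPKM in NS-DADm 1 and 3 and 139.5 in WT 3), values with no test.

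Angptl4, a secreted protein that inhibits lipoprotein lipase, was the least abundant of the 9 genes, at 2.97, 6.07 and 4.45 FPKM in NS-DADm 1, 2 and 3, against 3.48, 3.84 and 4.19 FPKM in WT 1, 2 and 3. NS-DADm 2 was again the highest library and NS-DADm 1 the lowest, and the groups overlapped. It rested on 68 to 143 counts per NS-DADm library and 69 to 87 per WT library. The log2 fold change was 0.26 (SE 0.24, 95% interval -0.28 to 0.79) and did not pass (adjusted p = 0.629). The interval does not reach the 0.94 estimated for Ucp2 but overlaps the Ucp2 interval of 0.50 to 1.37. A smaller change is not excluded at this depth and spread. The ratio was 1.66 within the low-atrial libraries (6.07 FPKM in NS-DADm 2 and a mean of 3.66 in WT 1 and 2) and 0.885 within the high-atrial ones (a mean of 3.71 FPKM in NS-DADm 1 and 3 and 4.19 in WT 3), again with no test.

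The thioesterases Acot1, of the cytosol, and Acot2, of the mitochondrial matrix, cleave long-chain acyl-CoA to free fatty acid and coenzyme A. They are neighbours on chromosome 12 with 95.6% identical coding sequence over 1236 aligned bases in the GENCODE M21 transcripts, and their longest shared run is 273 bases. Of the 1310 windows of 50 bases in the Acot2 coding sequence, 40.2% occur unchanged in Acot1, against none for Ucp3 in Ucp2 (75.2% identity) or for Cpt1b in Cpt1a (66.8% identity). The 90 aligned coding bases that differ most, at 14 positions, are shown because reads over them can tell the 2 genes apart and reads over the shared run, which starts at the next base, cannot (capitals mark the differences).
Acot2, coding bases 920 to 1009: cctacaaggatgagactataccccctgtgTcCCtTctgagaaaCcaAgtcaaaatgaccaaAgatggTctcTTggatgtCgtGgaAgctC
Acot1, coding bases 797 to 886: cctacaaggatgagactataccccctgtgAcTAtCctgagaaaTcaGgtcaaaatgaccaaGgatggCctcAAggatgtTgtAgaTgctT
The expected counts of both genes were fractional in all 6 libraries, so the levels of each depend on how the authors' estimator divided shared reads. Acot1 had 13.0, 18.3 and 12.4 FPKM in NS-DADm 1, 2 and 3, against 15.6, 16.2 and 13.8 FPKM in WT 1, 2 and 3. Acot2 had 42.0, 55.8 and 45.0 FPKM in NS-DADm 1, 2 and 3, against 60.7, 53.4 and 55.3 FPKM in WT 1, 2 and 3. The groups overlapped for both genes, since NS-DADm 2 reached or passed WT levels while NS-DADm 1 and 3 lay below all WT libraries. The log2 fold change was -0.03 for Acot1 (SE 0.15, 95% interval -0.36 to 0.30, adjusted p = 0.944) and -0.22 for Acot2 (SE 0.11, 95% interval -0.46 to 0.02, adjusted p = 0.311). With the counts of the 2 genes added together, which removes the division of reads between them, the log2 fold change was -0.19 (SE 0.11, adjusted p = 0.406). Without NS-DADm 2 it was -0.34 for the sum (adjusted p = 0.0553) and -0.36 for Acot2 (adjusted p = 0.0539, edgeR), still not past the threshold. Acot2 was 3.31 ± 0.29 times Acot1 in NS-DADm and 3.73 ± 0.38 times Acot1 in WT (SD, n = 3 each; exact two-sided permutation test of the log2 ratio, p = 0.2).

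Carnitine palmitoyltransferase 1 commits long-chain fatty acids to mitochondrial import, with Cpt1b as the muscle isoform and Cpt1a as the isoform typical of liver. Cpt1b had 259.4, 280.3 and 266.1 FPKM in NS-DADm 1, 2 and 3, against 310.3, 291.4 and 310.5 FPKM in WT 1, 2 and 3. All NS-DADm libraries lay below all WT libraries, by a small margin. The means of 268.6 ± 10.6 FPKM in NS-DADm and 304.1 ± 10.97 FPKM in WT (SD, n = 3 each) gave a log2 fold change of -0.15 (SE 0.06, 95% interval -0.30 to -0.01), with an unadjusted p of 0.0348 and an adjusted p of 0.233 (edgeR), so the difference failed the correction. Its counts were fractional in 5 of 6 libraries. Cpt1a had 17.1, 17.4 and 16.4 FPKM in NS-DADm 1, 2 and 3, against 17.95, 18.6 and 16.3 FPKM in WT 1, 2 and 3, with overlapping groups. Its log2 fold change was -0.03 (SE 0.07, 95% interval -0.20 to 0.13, adjusted p = 0.859). Cpt1b stood at 15.9 ± 0.56 times Cpt1a in NS-DADm and 17.3 ± 1.7 times Cpt1a in WT (SD, n = 3 each), and the log2 ratio differed by -0.12 (exact two-sided permutation p = 0.3).

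Cd36, which carries long-chain fatty acids across the plasma membrane of cardiomyocytes and of endothelial cells, was the most abundant of the 9 genes. It had 522.8, 624.5 and 552.3 FPKM in NS-DADm 1, 2 and 3, against 577.6, 550.0 and 548.7 FPKM in WT 1, 2 and 3. The groups overlapped, and NS-DADm held both the highest and the lowest library. The log2 fold change was 0.04 (SE 0.08, 95% interval -0.13 to 0.22, adjusted p = 0.832). Cd36 was also the only one of the 9 genes listed with more than 1 transcript model, 5 in all. The most abundant, of 3399 bases, made up 34.0% ± 1.5 of the FPKM of Cd36 in NS-DADm and 30.2% ± 1.6 in WT (SD, n = 3 each), and the least abundant, of 3539 bases, 1.06% ± 0.58 in NS-DADm and 1.41% ± 0.29 in WT. How reads were divided among the 5 models depends on the estimator, since their counts were fractional.

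At the level of transcript models, 0 of the 13 tested models of these genes were called with edgeR, where 0.0972% of all tested models were called. Ucp2, the 3399-base Cd36 model and Cpt1b had an unadjusted p under 0.05, 3 of the 13 models. The share of all tested models under that level was not counted, and among all tested genes it was 18.1% (edgeR). The single Ucp2 model carries the same counts as the gene, with the same log2 fold change of 0.94, and its adjusted p among all transcript models was 0.273.

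**Figure D2:**
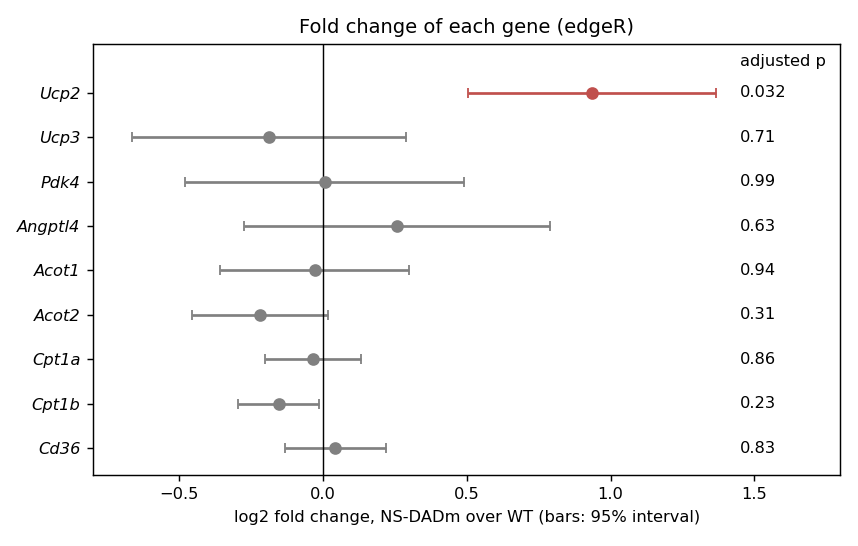
Log2 fold change (NS-DADm over WT, horizontal axis) of each gene as a point with its 95% interval from edgeR, and the adjusted p beside it. The interval of Ucp2 runs from 0.50 to 1.37, and 7 of the other intervals cover 0, the exception being Cpt1b (-0.30 to -0.01), which did not pass after adjustment.

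The order of the levels was the same in both groups except for Ucp2. From high to low, NS-DADm had Cd36, Cpt1b, Ucp2, Pdk4, Acot2, Ucp3, Cpt1a, Acot1 and Angptl4, and WT had Cd36, Cpt1b, Pdk4, Ucp2, Acot2, Ucp3, Cpt1a, Acot1 and Angptl4, all on the FPKM scale. In NS-DADm the ranges of Ucp2 and Pdk4 overlapped, and so did those of Cpt1a and Acot1. In WT those of Ucp2 and Acot2 overlapped. The ranges of the other neighbours in each order did not overlap.

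The NS-DADm libraries differed among themselves for this group of genes, with NS-DADm 2 mostly high and NS-DADm 1 mostly low, an observation made after the values were seen. NS-DADm 2 was the highest NS-DADm library for 7 of the 9 genes, all but Ucp2 and Ucp3, and the lowest for Ucp2. Among the 11642 genes averaging an FPKM of 1 or more, NS-DADm 2 was the highest NS-DADm library for 26.9%, and among 47 other PPAR target genes at that level for 61.7%. NS-DADm 1 was the lowest NS-DADm library for 6 of the 9 genes, against 42.6% of the other PPAR target genes and 30.9% of all genes at that level. Among the WT libraries, WT 1 was the highest for 3 of the 9 genes, 57.4% of the other PPAR target genes and 34.6% of all genes. WT 3 was the highest WT library for 4 of the 9 genes and the lowest for 4. It was the lowest for 53.2% of the other PPAR target genes and 33.9% of all genes. On the log2 scale the deviation of NS-DADm 2 from the NS-DADm mean was 0.60 for Pdk4, 0.49 for Angptl4, 0.35 for Acot1 and 0.24 for Acot2, and at most 0.14 for Cd36, Cpt1b and Cpt1a. That of NS-DADm 1 was -0.54 for Angptl4, -0.52 for Ucp3 and -0.46 for Pdk4. NS-DADm 2 was also the only NS-DADm library low in atrial transcripts, so the library and the atrial level cannot be told apart. In WT, the low-atrial WT 1 and 2 were both above WT 3 for Ucp3, Acot1, Cpt1a and Cd36, both below it for Ucp2, Pdk4 and Angptl4, and on either side of it for Acot2. For Cpt1b, WT 3 was the highest by a margin smaller than 1 FPKM over WT 1.

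**Figure D3:**
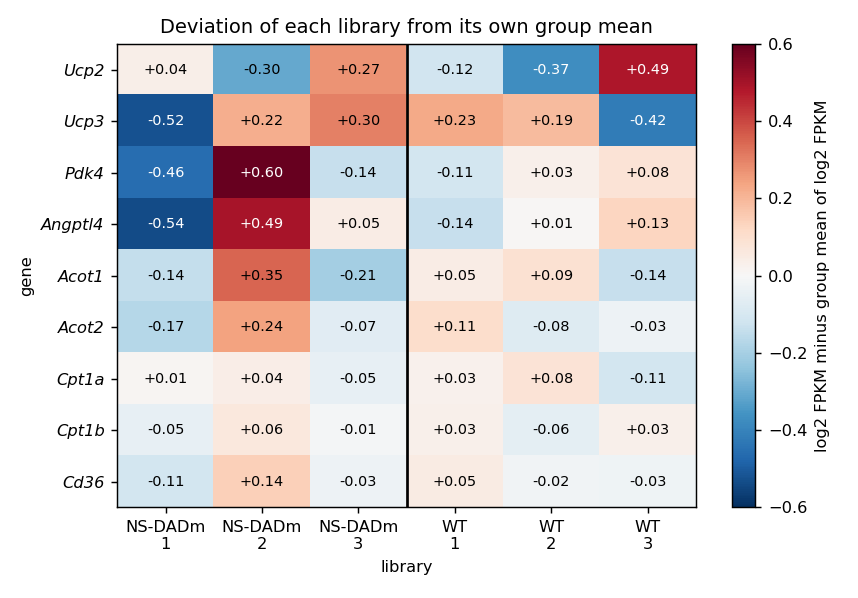
Deviation of each library (columns, NS-DADm left of WT) from the mean log2 FPKM of its own group for each gene (rows), as a number and a colour from blue (below) to red (above). NS-DADm 2 is above its group mean by 0.60 for Pdk4 and 0.49 for Angptl4 and below it by 0.30 for Ucp2, while WT 3 is above its group mean by 0.49 for Ucp2 and below it by 0.42 for Ucp3.

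Of 50 tested further PPAR target genes, 49 did not pass, where 3.2% of all tested genes were called, and the median log2 fold change of the 50 was -0.02. Fabp3, the fatty acid binding protein of heart muscle, and Lpl, lipoprotein lipase, were the most abundant of these genes, at log2 fold changes of -0.08 (SE 0.09) and 0.11 (SE 0.08), and did not pass (adjusted p = 0.705 and 0.531).

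No gene of the lists that act beside the 9 in the same steps was called, where 3.2% of all tested genes were. At that share, lists as short as these can hold no call. In the control of pyruvate dehydrogenase, 0 of 13 were called and 2 had an unadjusted p under 0.05. Pdp1, a phosphatase that opposes the kinases, had 11.7, 10.8 and 11.7 FPKM in NS-DADm 1, 2 and 3, against 15.4, 15.6 and 13.2 FPKM in WT 1, 2 and 3 (log2 fold change -0.35, adjusted p = 0.0599, edgeR). Its groups did not overlap, as held for 23.4% of all tested genes. Mpc1, a subunit of the mitochondrial pyruvate carrier, and Pdhb, a subunit of the dehydrogenase itself, were the most abundant of this list, at log2 fold changes of 0.16 and -0.04 (adjusted p = 0.203 and 0.813, edgeR). Of 9 other acyl-CoA thioesterases 0 were called and 0 had an unadjusted p under 0.05 with edgeR, and the most abundant, Acot13 and Acot7, had log2 fold changes of -0.08 and 0.07. For the carnitine shuttle the counts were 0 called and 2 unadjusted of 8, with Crat and Cpt2, carnitine acyltransferases inside mitochondria, at log2 fold changes of 0.03 and 0.14. For fatty acid uptake they were 0 called and 3 unadjusted of 17, where 18.1% of all genes had an unadjusted p under 0.05. Of 6 relatives of the uncoupling proteins 0 were called and 2 had an unadjusted p under 0.05. Slc25a4, the ADP/ATP carrier of heart mitochondria, was higher in each NS-DADm library (4771 to 5204 FPKM) than in each WT library (4138 to 4707 FPKM). Such a lack of overlap, too, held for 23.4% of all tested genes, and the log2 fold change of 0.21 did not pass (adjusted p = 0.160, edgeR). Slc25a5, another form of that carrier, had a log2 fold change of -0.06. Some genes stand in more than 1 of these lists, and Pdp1 was chosen after its values were seen.

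Of 17 tested PPAR receptors and partners, 2 rose, 0 fell and 15 did not pass, where 3.2% of all tested genes were called, and 16 had a positive fold change, where 49.3% of all tested genes did. Ppara, the receptor that drives most of these targets in heart muscle, had 26.1, 26.6 and 23.2 FPKM in NS-DADm 1, 2 and 3, against 19.2, 17.96 and 20.5 FPKM in WT 1, 2 and 3 (log2 fold change 0.42, SE 0.08, adjusted p = 0.0191). Ppard had 18.6, 18.6 and 19.8 FPKM in NS-DADm 1, 2 and 3, against 16.0, 14.4 and 16.3 FPKM in WT 1, 2 and 3 (log2 fold change 0.31, SE 0.07, adjusted p = 0.0483). Neither receptor overlapped between the groups, as held for 5 of the 17 genes and 23.4% of all tested genes. Ppara lost the call without NS-DADm 1, NS-DADm 2, WT 1 or WT 2 (adjusted p up to 0.103, edgeR). Ppard lost it when any single library was left out (adjusted p up to 0.197, edgeR), with the atrial score and in both limma fits. Esrra and Lpin1, a receptor and a coactivator that were the most abundant of this list, had log2 fold changes of 0.11 and 0.28 and did not pass (adjusted p = 0.376 and 0.0685). Ppargc1a, a coactivator of PPARs that was named after its values were seen, had 47.0, 60.9 and 32.2 FPKM in NS-DADm 1, 2 and 3, against 23.6, 25.3 and 31.3 FPKM in WT 1, 2 and 3, with NS-DADm 2 highest, and did not pass (log2 fold change 0.83, adjusted p = 0.0529, edgeR). Pparg, likewise named after its values were seen, had 9.33, 10.95 and 10.24 FPKM in NS-DADm 1, 2 and 3, against 7.39, 7.90 and 7.82 FPKM in WT 1, 2 and 3. It did not pass (log2 fold change 0.41, adjusted p = 0.0566, edgeR). The groups did not overlap for Ppargc1a or Pparg.

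**Figure D4:**
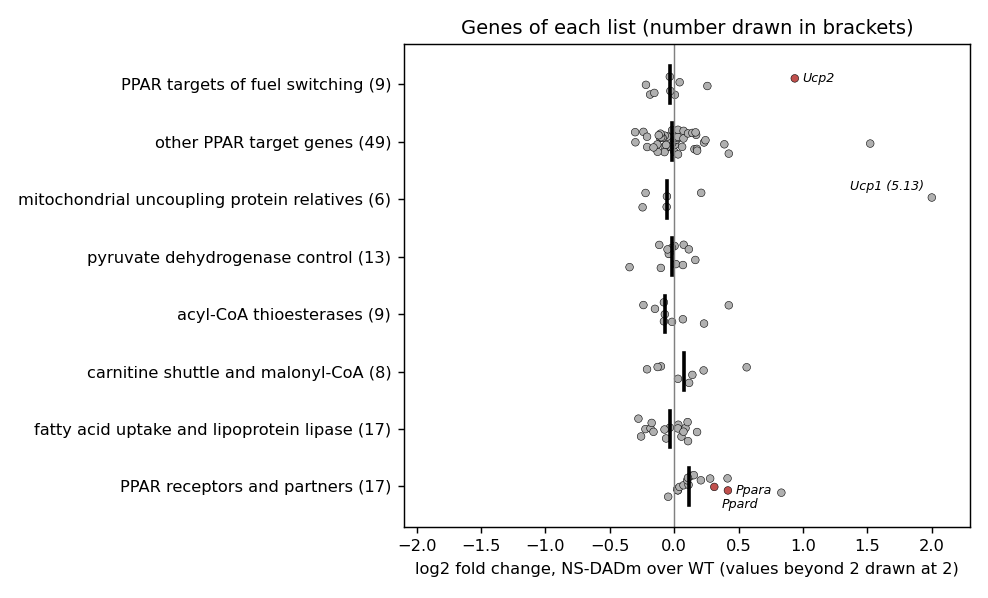
Log2 fold change (NS-DADm over WT, horizontal axis) of genes of each list, 1 point per gene with the number drawn in brackets, with called genes in red and named, uncalled genes in grey and the median of the points drawn as a black line. The genes in red are Ucp2 (0.94), Ppara (0.42) and Ppard (0.31). The point drawn at the right edge is Ucp1, at 5.13, which was not called.

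Among 1659 genes averaging an FPKM of 1 or more and with a group difference of at least 0.3 on the log2 scale, the profiles over the 6 libraries closest to that of Ucp2 were those of C3, Ctgf and Alox5ap. The mean absolute gap between profiles, each centred on its own mean of log2(FPKM + 0.1), was 0.10 for C3, a complement component, and 0.12 each for Ctgf, a matrix signalling protein, and Alox5ap, a protein of leukotriene synthesis in myeloid cells. C3 had 67.7, 53.4 and 69.4 FPKM in NS-DADm 1, 2 and 3, against 29.1, 26.2 and 39.2 FPKM in WT 1, 2 and 3. Like Ucp2, it was lowest in NS-DADm 2 among NS-DADm libraries and highest in WT 3 among WT libraries. The likeness is a description of 6 points that share the group difference and the atrial split.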

How the data were processed

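RNA of 6 myocardium samples was sequenced, and per the labels' protocols tissue was frozen, RNA was extracted with Trizol and libraries followed BGI protocols. The authors deposited expected counts (estimated reads per gene or transcript) and FPKM, per the file headers. HISAT, an aligner, is named in the submitters' processing notes. The sources used here do not give the estimator, the genome build or the use of strand. Genes are listed from an FPKM of 0.01, and a gene not listed in a sample was taken as 0.

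Expected counts were rounded, filtered with filterByExpr, scaled by TMM and tested with edgeR 4.0.16 (R 4.3.3) without a replicate block, with adjustment over all genes tested. Alternatives used limma 3.58.1 and DESeq2 1.42.0. Standard errors come from the fold change and F statistic. No pair of libraries was a duplicate (chi-square per gene 3.37 to 17.0). A row without symbol (at most 3.2e-04% of counts) was left out. The test was also run on counts simulated with the spread fitted to these libraries and without an atrial split within groups. That run cannot show how the test behaves with such a split. Sequences are from RefSeq and GENCODE M21, used without the authors' coordinates.

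The 9 genes and all lists were chosen with earlier results of these data known. The naming rule takes the 9 genes, called genes of each list with its 2 most abundant (marker lists are given here by their sums), and the 3 profiles closest to each called gene of the 9. The result for 1 further PPAR target gene is not reported or drawn here.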

Additional observations from a re-analysis of the deposited data

How the results depend on the processing

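Of 14 alternatives, Ucp2 kept its direction in all and its call in 8 (log2 fold change 0.69 to 1.21). The number of the 9 genes changed was 1 with edgeR over all libraries, 0 with limma on log2(FPKM + 1), 0 with limma on log2(FPKM + 0.1) and 0 to 1 when single libraries were left out. The number of all genes changed, 420 of 13130, was 272 and 267 with these 2 limma fits, 895 with the replicate block and 117 to 382 when single libraries were left out (117 without WT 2, 149 without WT 1, 181 without NS-DADm 1 and 273 without NS-DADm 2). The other 8 genes were called in 0 of 112 alternative fits, with a lowest adjusted p of 0.0539 (Acot2 without NS-DADm 2). The sign of 6 of them, Pdk4, Ucp3, Acot1, Cpt1a, Angptl4 and Cd36, changed in at least 1 alternative, and the cause was not tested. Pdk4 was at -0.067 with the replicate block and at -0.090 and -0.091 with limma, and with the atrial covariate Ucp3 was at 0.028, Acot1 at 0.13 and Cpt1a at 0.034. When single libraries were left out, log2 fold changes ran from -0.37 to 0.21 for Pdk4, -0.37 to 0.031 for Ucp3, -0.24 to 0.078 for Acot1, -0.095 to 0.014 for Cpt1a, -0.036 to 0.49 for Angptl4 and -0.047 to 0.10 for Cd36, and from -0.36 to -0.13 for Acot2, -0.20 to -0.13 for Cpt1b and -0.34 to -0.10 for the summed Acot counts. Acot2, Cpt1b, the summed Acot counts and the paralog ratios kept their sign in all alternatives run. With 2 against 3 libraries, the permutation tests of the ratios cannot go below 0.1.

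Replicate numbers are shared between the groups, but same-numbered libraries did not all deviate together (correlations of -0.05, 0.33 and 0.40 for numbers 1, 2 and 3, and NS-DADm 1 correlated best with WT 3), so they were not treated as pairs. With the replicate block the adjusted p of Ucp2 was 5.6e-05 (edgeR), the number of other PPAR target genes changed was 3 and not 1, as it also was without NS-DADm 3, and the paralog ratios had an exact p of 0.25 for Ucp3/Ucp2, 0.5 for Cpt1b/Cpt1a and 0.25 for Acot2/Acot1. The values within low-atrial and high-atrial libraries were added after the data were seen.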

Other observations

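Transcripts of fat cells varied in level among the libraries. The summed FPKM of 9 adipocyte markers was 80.9, 36.5 and 294.6 in NS-DADm 1, 2 and 3, against 39.4, 31.4 and 97.5 in WT 1, 2 and 3. NS-DADm 3 was the highest library, and the groups overlapped. Most of the sum in NS-DADm 2, WT 1 and WT 2 came from Cidea, which varied less than the sum. Cidea had 33.1, 29.2 and 39.7 FPKM in NS-DADm 1, 2 and 3, against 29.2, 27.4 and 22.7 FPKM in WT 1, 2 and 3. Ucp1, the uncoupling protein of brown fat, was listed at 1.69 and 23.6 FPKM in NS-DADm 1 and 3 and at 0 in NS-DADm 2, against 0.68 FPKM in WT 3 and 0 in WT 1 and 2. Adipoq, which encodes the fat cell hormone adiponectin, had 6.51, 0.74 and 25.4 FPKM in NS-DADm 1, 2 and 3, against 2.97, 0.51 and 8.02 FPKM in WT 1, 2 and 3. Cd36, which fat cells also express, was not highest in NS-DADm 3, and Ucp2 was highest there (162.8 FPKM). The part of fat cells in the level of Ucp2 was not tested. Markers of smooth muscle cells and pericytes summed to 236.9 to 275.7 FPKM in NS-DADm and 293.1 to 310.7 FPKM in WT, ranges that did not overlap. Most of each sum came from Rgs5, at 163.8, 183.4 and 155.0 FPKM in NS-DADm 1, 2 and 3, against 219.3, 227.9 and 196.1 FPKM in WT 1, 2 and 3. The markers did not share a direction, and 3 of the 7 had a positive fold change. Tagln, for example, had 28.7, 13.0 and 19.6 FPKM in NS-DADm 1, 2 and 3, against 11.1, 11.8 and 21.1 FPKM in WT 1, 2 and 3. Of these 7 markers, 0 were called by edgeR, where 3.2% of all tested genes were. An unadjusted p under 0.05 was found for 4 of them and for 18.1% of all tested genes (edgeR). Fibroblast markers summed to 511.4 to 618.6 FPKM in NS-DADm and 523.2 to 607.3 FPKM in WT.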
